A study of Mus musculus with 9 samples.

Results

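The integrated stress response and the unfolded protein response were followed through 10 genes, Atf4, Atf5, Ddit3, Trib3, Asns, Ppp1r15a, Sesn2, Atf6, Xbp1 and Herpud1, which were taken by symbol from a table of 11063 genes. All 10 had an entry, and each is known from textbook work as a regulator or a target gene of these responses. The cells came from female FVB/N mice that were 6 weeks old at the start. Of these, 5 were kept under calorie restriction (CR), for which the submitters give 65% of the food eaten on the day before by ad libitum-fed mice, for 8 weeks and with vitamins and minerals added, and 4 were fed ad libitum. The samples of both groups went through magnetic depletion of lineage-positive cells, sorting of the non-epithelial fraction (Lin-, CD49fneg, CD24neg) of the #4 mammary glands, and 1 library per mouse from 15000 cells and 30 ng of RNA. By the study's methods this depletion removes endothelial cells but blood-derived cells and fibroblasts only in part, so that the fraction is a selected mixture of stromal and immune cells and no single type. The submitters number the CR mice 1 to 5 and the ad libitum-fed mice 2 to 5. RNA was read at the 3' ends of transcripts by a bulk form of MARS-Seq, in which molecular identifiers allow each captured transcript to be counted once, so that the counts do not scale with the length of a gene. All values below are normalized counts, the molecule counts divided by a size factor per library.

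The integrated stress response starts with kinases that sense missing amino acids, unfolded protein in the endoplasmic reticulum (ER), heme shortage or viral RNA and that phosphorylate the translation factor eIF2. General translation then falls, while the mRNAs of Atf4 and Atf5 are translated better through their upstream reading frames, and ATF4 protein switches on genes for amino acid supply, for feedback and, under lasting stress, for cell death. The unfolded protein response shares the eIF2 kinase PERK and adds the sensors IRE1, which splices the Xbp1 mRNA, and ATF6, which is cut out of its membrane to become a transcription factor. Phosphorylation, translation, splicing and cleavage are not themselves seen in a count of 3' ends, and only the mRNA level was measured here.

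ATF4 and its bZIP partners bind a composite element known as the C/EBP-ATF response element (CARE), searched here as TGATGNAAN on both strands of 300-base promoter windows from RefSeq (build GRCm38.p6, 250 bases before to 50 after each start). A window was matched for 9 of the 10 genes, all but Atf6, and 3 of the 9 held the element, against 3.95% of 32851 promoters. Counted by gene, as the 3 of 9 were, 133 of the 5244 genes tested below that had a window held it. The 10 genes include known targets of ATF4, so this share is a description and not a test. The elements of Trib3, Asns and Herpud1 are shown because ATF4 is known to act on these genes and because their counts are described below, with 10 flanking bases on each side, read 5′ to 3′ on the strand that carries the motif, and with the motif in capitals.
Trib3, chr2:152344029-152344057, plus strand, motif from base 14 of the transcript: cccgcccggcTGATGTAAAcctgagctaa
Asns, chr6:7693214-7693242, minus strand, motif from 23 bases before the transcript: cccagccacaTGATGAAACttcccgcacg
Herpud1, chr8:94386306-94386334, minus strand, motif from 113 bases before the transcript: gggtgcgggcTGATGCAACccgccgtggt
Herpud1 was also the only one of the 9 with the ER stress response element of the second kind (ERSE-II), bound by ATF6 and XBP1 and present in 0.0365% of promoters. The next line gives both of its elements in 92 bases of the gene's own (plus) strand, chr8:94386306-94386397, with the reversed CARE as the first and the ERSE-II as the second stretch of capitals.
Herpud1: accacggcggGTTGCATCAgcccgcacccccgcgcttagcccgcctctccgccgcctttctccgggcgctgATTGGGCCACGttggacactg
Neither the unfolded protein response element (UPRE), searched as TGACGTGG and found in 0.676% of promoters, nor the ER stress response element (ERSE, 0.119%) was matched in the 9 windows. A missing match says only that these letters are not in this window, and a match is not a proven site.

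Of the 10 genes, 1 changed at a Benjamini-Hochberg adjusted p of at most 0.05 in limma: Atf4, which was higher in CR. That is 1 of 10 beside 17.1% of the 6815 genes tested, 7.98% higher and 9.14% lower, a share near the background. All 10 passed the filter on low values (10 normalized counts in at least 4 libraries). The log2 fold change was above 0 for 8 and below 0 for 2 of them, with a median of 0.35, against 54.3% above 0 and a median of 0.07 over all tested genes. The median of the 10 was 0.22 without ad libitum mouse 4 (0.32 to 0.38 without any other mouse), and with the libraries scaled to a list of fibroblast genes it was 0.05, against -0.22 over all tested genes. Under that scaling and with library total scaling 6 of the 10 were above and 4 below 0. By the criteria of the study, which also ask for a 1.5-fold difference and for 30 counts in 1 library or more, 15.7% of the tested genes were called and 0 of the 10, since Atf4 at 1.49-fold lay just under the fold limit. At an unadjusted p of at most 0.05, limma gave 3 of the 10 (Atf4, Atf5 and Ppp1r15a) and 30.5% of all tested genes.

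The levels spanned a wide range. Atf4 was the most abundant in both diets, followed by Ppp1r15a, Atf5, Xbp1, Herpud1, Ddit3 and Asns, in the same order in both diets, and Atf6, Trib3 and Sesn2 were lowest. In CR libraries the neighbours in this order did not overlap, except Herpud1 with Ddit3 and the lowest 3 genes among themselves. In ad libitum libraries Ppp1r15a overlapped Atf5, Atf5 overlapped Xbp1 and Xbp1 overlapped Herpud1, and the lowest 3 again overlapped. Together the 10 genes made up 0.369% to 0.431% of the normalized counts of the CR libraries and 0.272% to 0.345% of those of the ad libitum libraries, with Atf4 as the most abundant of them.

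**Figure D1:**
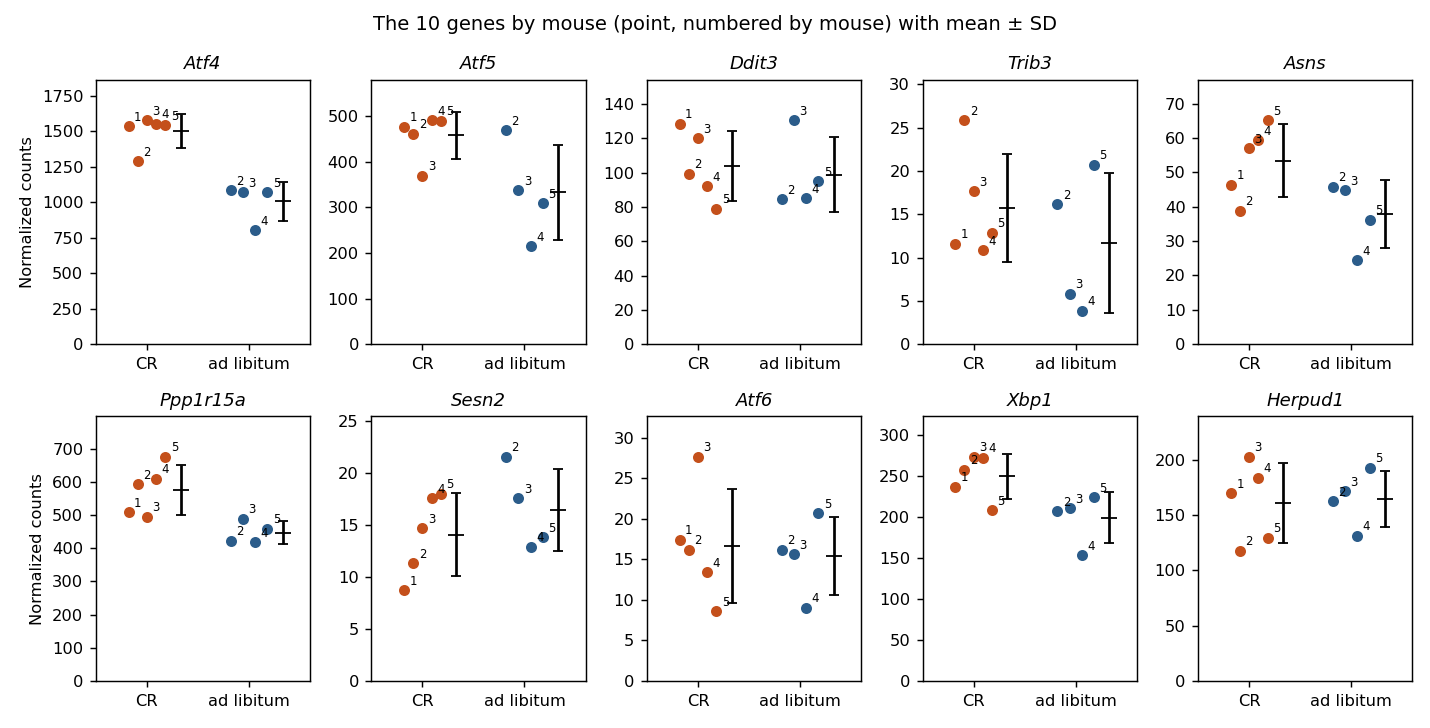
Normalized counts (y axis, each from 0) of the 10 genes in each mouse, with CR left of ad libitum; each point is 1 library with its mouse number, and the black bar is the mean ± SD (n = 5 and 4). All 5 CR points of Atf4 and of Ppp1r15a lie above all 4 ad libitum points, and the diets overlap in the other 8 genes. Of all tested genes, 16.9% had no overlap between the diets, 7.29% with CR above.

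Atf4, the transcription factor at the centre of the response, had 1536, 1288, 1579, 1553 and 1542 normalized counts in CR mice 1 to 5, against 1086, 1072, 803 and 1072 in ad libitum-fed mice 2 to 5. Every CR library was above every ad libitum library, 4 CR libraries lay close together with mouse 2 below them, and ad libitum mouse 4 was the lowest of all 9. The means were 1499 ± 119 in CR and 1008 ± 137 in ad libitum-fed mice (SD, n = 5 and 4), a log2 fold change of 0.58 (SE 0.15, 95% interval 0.27 to 0.89) or 1.49-fold, with an adjusted p of 0.0113 in limma. The exact two-sided permutation test over the 126 assignments of the 9 mice gave p = 0.00794, the smallest that 5 against 4 mice allow. Without ad libitum mouse 4 the log2 fold change was 0.47 and the adjusted p in limma 0.0361. Scaled to the fibroblast genes, it was 0.28 with an adjusted p of 0.506 in limma, so that the call of Atf4 was lost. This scaling moved the whole table, with a median over all tested genes of -0.22 against 0.07 and 101 against 544 genes called higher. Of the 11 fibroblast genes, 4 were themselves called higher in CR, and their sum was lowest in ad libitum mouse 4.

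Atf5, the close relative of Atf4 that is induced by the same route, had 476, 461, 369, 491 and 489.8 normalized counts in CR mice, against 469, 337, 215 and 309 in ad libitum-fed mice. The diets overlapped because ad libitum mouse 2, the highest of its group, lay above CR mice 2 and 3. The log2 fold change was 0.51 (SE 0.20, 95% interval 0.09 to 0.92) with an adjusted p of 0.0921 in limma, which misses the threshold, and an exact two-sided permutation p of 0.0635. Atf5 stood at 0.69 with an adjusted p of 0.0230 without ad libitum mouse 2, at 0.32 with 0.288 without ad libitum mouse 4, and at 0.21 with 0.659 when scaled to fibroblast genes. The spread was wider among ad libitum-fed mice, with a coefficient of variation of 11.2% in CR and 31.5% in ad libitum libraries.

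The 5 target genes of ATF4 gave 0 calls, and limma at an unadjusted p of at most 0.05 gave 1, Ppp1r15a, while DESeq2, edgeR and voom also called 0 of them. Ppp1r15a (GADD34), which brings a phosphatase to eIF2 and so closes the feedback loop, had 507, 592, 495, 609.7 and 675 normalized counts in CR mice, against 423, 489, 418 and 459 in ad libitum-fed mice. The diets did not overlap, but narrowly, as CR mouse 3 lay just above ad libitum mouse 3. Among all tested genes 16.9% had no overlap between the diets, 7.29% with CR above. The log2 fold change of Ppp1r15a was 0.36 (SE 0.16, 95% interval 0.03 to 0.68), with an adjusted p of 0.125 in limma and an exact two-sided permutation p of 0.0238. It was 0.30 to 0.41 with single mice left out and 0.06 when scaled to fibroblast genes.

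Asns, the asparagine synthetase whose promoter element is shown above, had 46.4, 38.8, 57.0, 59.4 and 65.2 normalized counts in CR mice, against 45.8, 44.8, 24.5 and 36.2 in ad libitum-fed mice. CR mice 1, 3, 4 and 5 lay above all ad libitum-fed mice, mouse 1 narrowly, and CR mouse 2 lay among them. The log2 fold change was 0.50 (SE 0.26, 95% interval -0.05 to 1.05), with an adjusted p of 0.207 in limma and an exact two-sided permutation p of 0.0556. Without ad libitum mouse 4 Asns stood at 0.31, and at 0.21 when scaled to fibroblast genes. Trib3, a pseudokinase that binds ATF4 and AKT and also carries the element, had 11.6, 25.9, 17.6, 10.8 and 12.9 normalized counts in CR mice, against 16.2, 5.85, 3.87 and 20.7 in ad libitum-fed mice. These values rest on 3 to 32 molecules a library and overlapped widely, with a log2 fold change of 0.60 whose 95% interval ran from -0.42 to 1.61 (adjusted p in limma 0.439, exact two-sided permutation p 0.286). The value of Trib3 moved with single mice, from 0.22 without ad libitum mouse 4 to 0.94 without ad libitum mouse 5, and was 0.39 to 0.46 in edgeR, DESeq2 and voom.

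Ddit3 (CHOP), the factor linked to cell death under lasting stress, had 129, 99.4, 119.95, 91.9 and 78.9 normalized counts in CR mice, against 84.4, 131, 85.05 and 94.8 in ad libitum-fed mice. The highest library was an ad libitum one and the lowest a CR one. The log2 fold change was 0.07 (SE 0.22, 95% interval -0.38 to 0.53), with an adjusted p of 0.857 in limma and an exact two-sided permutation p of 0.746, so that a change of up to 1.44-fold upward or to 0.768 of the ad libitum level downward lies within the interval. The 3' end of Ddit3 overlaps that of the antisense gene Mars, and the 3' end of Ppp1r15a overlaps antisense Tulp2; whether strand was used in counting is not given in the sources used here, and without it the reads of such partners cannot be told apart. Sesn2, a sestrin that senses leucine and restrains mTORC1, had 8.7, 11.3, 14.7, 17.55 and 18.01 normalized counts in CR mice, against 21.5, 17.5, 12.9 and 13.8 in ad libitum-fed mice. The diets overlapped, and the log2 fold change of -0.23 had a 95% interval of -0.997 to 0.54 (adjusted p in limma 0.718, exact two-sided permutation p 0.413), and it was -0.33 to -0.08 with single mice left out.

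The genes of the other arms of the unfolded protein response gave 0 calls of 3 in limma, also at an unadjusted p of at most 0.05, and 0 in DESeq2, edgeR and voom. Xbp1, the target of IRE1, had 237, 258, 273, 272 and 208 normalized counts in CR mice, against 207, 210.4, 153 and 224 in ad libitum-fed mice. CR mice 1 to 4 lay above all ad libitum-fed mice and CR mouse 5 lay among them. The log2 fold change was 0.33 (SE 0.18, 95% interval -0.04 to 0.71), with an adjusted p of 0.214 in limma and an exact two-sided permutation p of 0.0397. Without ad libitum mouse 4 Xbp1 stood at 0.22, and at 0.04 when scaled to fibroblast genes. Counts of 3' ends do not tell spliced from unspliced Xbp1.

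Herpud1, an ER membrane protein of ER-associated degradation and the gene with both promoter elements, had 170.1, 118, 203, 184 and 129.5 normalized counts in CR mice, against 162, 171, 131 and 193 in ad libitum-fed mice. The diets covered the same range, and the log2 fold change was -0.05 (SE 0.20, 95% interval -0.48 to 0.38), with an adjusted p of 0.899 in limma and an exact two-sided permutation p of 0.825. Atf6, the membrane-bound factor, had 17.4, 16.2, 27.6, 13.4 and 8.58 normalized counts in CR mice, against 16.2, 15.6, 9.02 and 20.7 in ad libitum-fed mice. Here too the ranges lay on each other, from 7 to 47 molecules a library, and the log2 fold change of 0.07 had a 95% interval of -0.75 to 0.90 (adjusted p in limma 0.928, exact two-sided permutation p 0.857).

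**Figure D2:**
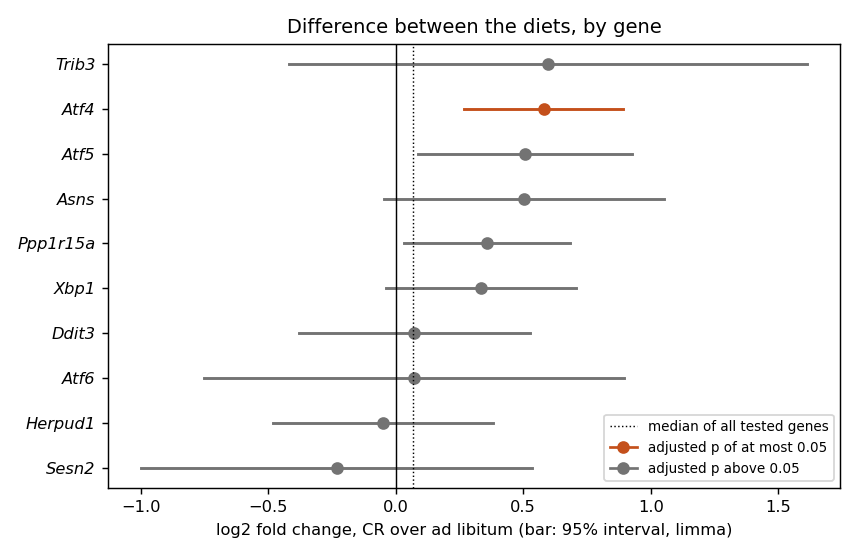
Log2 fold change (x axis, CR over ad libitum, limma) of each of the 10 genes with its 95% interval; the dotted line is the median of all tested genes (0.07) and colour marks an adjusted p of at most 0.05. Atf4 alone passes, and the interval of Atf5 (0.09 to 0.92) and of Ppp1r15a (0.03 to 0.68) also lies above 0, while the intervals of Trib3, Atf6 and Sesn2 are the widest.

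Library depth and single mice moved with these values. The CR libraries held 785301 to 1485963 molecules (median 974109) and the ad libitum libraries 382877 to 817030 (median 480190), and 9557 to 10616 genes were detected per library. A molecule counted for 0.516 to 0.966 normalized counts in CR and 0.898 to 1.95 in ad libitum libraries. Ad libitum mouse 4 was the lowest of the 4 ad libitum libraries in 9 of the 10 genes, against 27.7% of all tested genes, and the lowest of all 9 in 6. The part of depth and of this mouse in the results was not tested beyond the values without it.

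Cell-type markers also moved with diet, and in bulk samples fewer cells of a type and less RNA per cell cannot be told apart. All 11 tested T cell markers were lower in CR, with a median log2 fold change of -3.86 and summed levels of 104 to 219 in CR and 1577 to 2755 normalized counts in ad libitum libraries. All 4 tested mast cell markers, 2 of 4 macrophage markers and 1 of 3 B cell markers were lower too. The filter on low values can be passed through the 4 ad libitum libraries alone, so markers high only there, such as Blk, count among those tested. Without that filter 4 of 6 mast cell, 4 of 11 macrophage and 2 of 6 B cell markers were lower. Of 4 tested endothelial markers, whose sums were 45.5 to 110.5 in CR and 71.8 to 127 in ad libitum libraries, Pecam1 was lower (log2 fold change -2.53, adjusted p in limma 0.000379) and Tek higher (2.15, 0.0298), and the call of Tek was lost without CR mouse 1 (adjusted p 0.0725), 2 (0.0514), 3 (0.0640) or 4 (0.0755) or ad libitum mouse 2 (0.0515) or 4 (0.0819). Tek was also not called in DESeq2, edgeR or voom or with the mouse number as a replicate block. Of 11 fibroblast markers 4 were higher (Dcn, Dpt, Fbln1 and Pdgfrb) and 0 lower, with sums of 9995 to 12827 in CR and 5689 to 10206 in ad libitum libraries, where the lowest was that of mouse 4 and the next 8155. Without ad libitum mouse 4 2 of the 11 were higher and their median log2 fold change was 0.10, against 0.35 with it. The epithelial markers Krt18 and Cdh1 summed to 0 to 8.26 in CR and 0 to 9.88 in ad libitum libraries, near absent in a fraction labelled non-epithelial. The part of these cell types in the levels of Atf4 and the other genes was not tested, apart from the scaling to fibroblast genes given above.

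The calls in each list below stand beside 7.98% higher and 9.14% lower of all tested genes. Of the other genes of these pathways, taken from lists of textbook members, 2 bZIP partners of ATF4 were higher in CR. Atf3, a stress-induced factor that is itself a target of ATF4, had 774, 894, 603, 435 and 535 normalized counts in CR mice, against 260.3, 296, 294 and 252 in ad libitum-fed mice. The diets did not overlap and the log2 fold change was 1.19 (SE 0.20), with an adjusted p of 0.000314 in limma. Cebpb, a C/EBP factor that pairs with ATF4, had 2396, 2210.3, 2033, 1762 and 1902 normalized counts in CR mice, against 1651, 1333, 936 and 1427 in ad libitum-fed mice, again without overlap. This was a log2 fold change of 0.65 with an adjusted p of 0.0133 in limma, and 0.35 with an adjusted p of 0.417 when scaled to fibroblast genes, where Atf3 kept its call. That made 2 higher and 0 lower of 4 tested partners, and Cebpd, which had a log2 fold change of 0.72, missed the threshold at an adjusted p of 0.120 and passed it without ad libitum mouse 2 (adjusted p 0.0326).

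**Figure D3:**
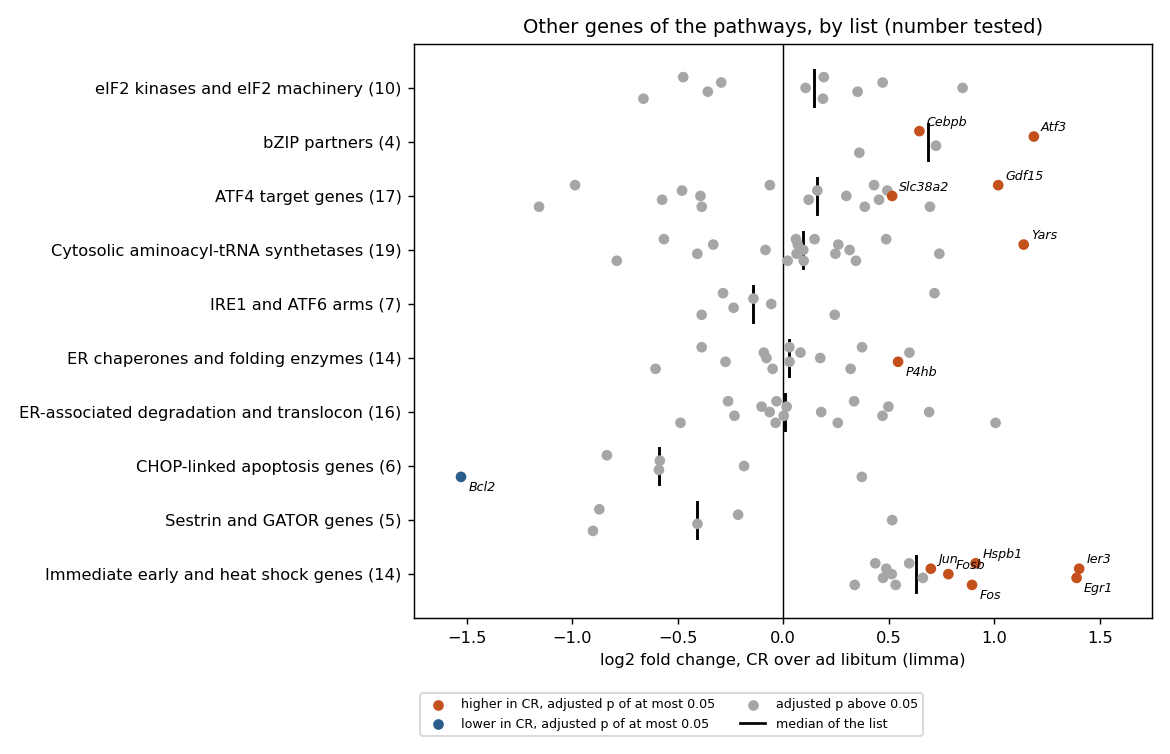
Log2 fold change (x axis, CR over ad libitum, limma) of every tested gene of 10 lists, 1 point per gene, with the median of each list as a black bar; orange marks genes higher and blue genes lower in CR at an adjusted p of at most 0.05. The called genes are few and scattered outside the bZIP partners (2 of 4) and the immediate early and heat shock genes (6 of 14), and all 14 immediate early and heat shock genes lie right of 0.

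The list of further ATF4 target genes had 2 higher and 0 lower of 17 tested, beside 7.98% higher and 9.14% lower of all tested genes. Its median log2 fold change was 0.16, against 0.07 over all tested genes. When scaled to fibroblast genes it was -0.12, against -0.22 over all tested genes. Without ad libitum mouse 4 it was -0.05, against 0.06 over all tested genes. The 2 higher genes were Gdf15, a secreted stress cytokine, and Slc38a2, an amino acid transporter. Gdf15 averaged 95.1 ± 46.8 in CR and 44.6 ± 15.9 normalized counts in ad libitum mice (SD, n = 5 and 4), a log2 fold change of 1.02 with an adjusted p of 0.0341 in limma. It lost the call without CR mouse 2 (adjusted p 0.0921), 4 (0.0737) or 5 (0.0600) or ad libitum mouse 2 (0.0568), 3 (0.0703) or 4 (0.113), and was called in 12 of 20 alternatives. Slc38a2 averaged 247 ± 19.9 in CR and 174 ± 27.8 normalized counts in ad libitum mice, a log2 fold change of 0.52 at an adjusted p of 0.0496, was called in 6 of 20 and, with single libraries left out, only without ad libitum mouse 4 (adjusted p 0.0412 to 0.154 over the 9 mice). Nupr1, the most abundant of the list and a chromatin-binding stress protein, averaged 636 ± 48.2 in CR and 509 ± 165 normalized counts in ad libitum mice and was not called (adjusted p in limma 0.221). Shmt2, of mitochondrial one-carbon metabolism, had a log2 fold change of -0.48 with an adjusted p of 0.147.

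Of 19 cytosolic aminoacyl-tRNA synthetases, which charge tRNAs and of which many are ATF4 targets, 1 was higher and 0 lower. Their median log2 fold change was 0.10, against 0.07 over all tested genes, and -0.20 when scaled to fibroblast genes, against -0.22. Yars, for tyrosine, had 131, 111, 131, 127 and 128 normalized counts in CR mice, against 96.0, 52.6, 34.8 and 56.9 in ad libitum-fed mice. The diets did not overlap and the log2 fold change was 1.14 (SE 0.25) with an adjusted p of 0.00342 in limma, which was 0.0688 when scaled to fibroblast genes. Of the synthetases, Aars, Gars, Iars and Tars held the CARE in the promoter window and were not called (log2 fold changes 0.26, 0.10, 0.095 and 0.34). The same was true of Nupr1 (0.39), Slc1a4 (0.30) and Eif2s3x (0.35) from other lists. Atf3 and Yars, both called, held the CARE too, on the plus strand of chr1 and of chr4, shown as before for comparison with the 3 genes above.
Atf3, chr1:191183426-191183454: gcggacttggTGATGCAAGtgcgagaagg
Yars, chr4:129189896-129189924: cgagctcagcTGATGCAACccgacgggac
Herpud1 and Yars share the 9 capital letters of this element, with log2 fold changes of -0.05 and 1.14. Over all 133 tested genes with the element in the window, 11 were higher and 15 lower, together 19.5%, against 16.6% of the 5244 tested genes that had a window, and their median log2 fold change was 0.15 against 0.06.

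The upstream and ER-facing lists showed few calls, beside 17.1% of all tested genes. Of 10 tested genes of the eIF2 kinases and eIF2 machinery limma called 0, with 1 at an unadjusted p of at most 0.05. This was Eif2b1, a subunit of the exchange factor of eIF2, with 54.0 ± 11.4 in CR and 31.5 ± 16.3 normalized counts in ad libitum mice and an adjusted p of 0.0575, which was 0.00916 without ad libitum mouse 2. The IRE1 and ATF6 arms had 0 calls of 7 in limma (1 at an unadjusted p of at most 0.05, the ER stress factor Creb3l1) and ER-associated degradation 0 of 16 (3 at an unadjusted p of at most 0.05), and DESeq2, edgeR and voom called 0 in these 3 lists. With upper-quartile scaling Eif2b1, Creb3l1, Vcp and Sec61a1 were called higher, 1 in each of the first 2 lists and 2 in the degradation list. Eif2b1 was also called with the filter of 30 normalized counts. Vcp, the segregase that pulls proteins from the ER, had a log2 fold change of 1.01 with an adjusted p of 0.0608, and without ad libitum mouse 2 Vcp (0.00289) and Creb3l1 (0.0255) passed. Of 14 ER chaperones and folding enzymes 1 was higher, the disulfide isomerase P4hb, at 646 ± 94.7 in CR and 441 ± 54.0 normalized counts in ad libitum mice (log2 fold change 0.54, adjusted p in limma 0.0268). The call of P4hb was lost without CR mouse 1 (adjusted p 0.0537), 4 (0.0685) or 5 (0.0678) or ad libitum mouse 3 (0.0586) or 4 (0.0727). It was also lost with library total scaling (adjusted p 0.0590), with the mouse number as a replicate block (0.0958) and when scaled to fibroblast genes (log2 fold change 0.25, adjusted p 0.568). The call held in 12 of 20 alternatives. Hspa5 (BiP), the chaperone most often used as a readout of ER stress, averaged 905 ± 111 in CR and 736 ± 170 normalized counts in ad libitum mice, with an adjusted p of 0.223. The median log2 fold changes of these lists were 0.15, -0.14, 0.01 and 0.03 for the eIF2, IRE1 and ATF6, degradation and chaperone genes, against 0.07 over all tested genes. When scaled to fibroblast genes they were -0.14, -0.43, -0.28 and -0.26, against -0.22 over all tested genes. The degradation (-0.08) and chaperone genes (-0.06) were also below 0 with library total scaling, against -0.02 over all tested genes. The medians also turned with single mice left out, the eIF2 genes to -0.05 without ad libitum mouse 3, the chaperones to -0.06 without CR mouse 3 and -0.01 without ad libitum mouse 4, and the degradation genes to -0.01 without CR mouse 2.

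Of 6 tested apoptosis genes linked to CHOP, 1 was lower, the survival gene Bcl2, at 12.4 ± 8.53 in CR and 35.7 ± 17.9 normalized counts in ad libitum mice (SD, n = 5 and 4), a log2 fold change of -1.53 with an adjusted p of 0.0452 in limma. It was called in 12 of 19 alternatives and not without CR mouse 3 (adjusted p 0.0820), 4 (0.106) or 5 (0.0921) or ad libitum mouse 2 (0.122), 3 (0.132) or 4 (0.0908). T cells, whose markers fell in the same libraries, also express Bcl2, and their part in this value was not tested. Of 5 sestrin and GATOR genes limma, DESeq2, edgeR and voom called 0, with 1 in limma at an unadjusted p of at most 0.05 (Nprl2, a GATOR1 subunit, lower in CR at an adjusted p of 0.0439 without ad libitum mouse 5), and Sesn1 and Sesn3, the relatives of Sesn2, had log2 fold changes of -0.41 and -0.90 with adjusted p of 0.343 and 0.166.

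Immediate early and heat shock genes, which respond to many stimuli and also to the dissociation of tissue, were set beside these lists because Atf3 and Ppp1r15a are known as rapid-response genes too. Of 14, 6 were higher in CR (Egr1, Ier3, Fos, Fosb, Hspb1 and Jun) and 0 lower, 10 with upper-quartile scaling and 2 when scaled to fibroblast genes, and the summed level of all 14 was 20513 to 34005 in CR and 13877 to 16037 normalized counts in ad libitum libraries. Egr1 averaged 2853 ± 727 in CR and 1065 ± 106 normalized counts in ad libitum mice (SD, n = 5 and 4), a log2 fold change of 1.39 with an adjusted p of 2.15e-05 in limma. Hspa1b, the most abundant of the list, averaged 4547 ± 1930 in CR and 3143 ± 433 and was not called (adjusted p 0.241), but was without CR mouse 1 (adjusted p 0.0393). The part of these genes' response in the levels of Atf3, Atf4 and Ppp1r15a was not tested.

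Among the genes whose profile over the 9 libraries was most like that of Atf4 were Fosl1 (Pearson r 0.979, Spearman rho 0.93), Nkain1 (0.973 and 0.90), Tmbim1 (0.971 and 0.87) and Tnfrsf1a (0.971 and 0.85). After the mean of each diet was subtracted they were Klf15 (r 0.980, rho 0.80), Ndrg1 (0.970 and 0.77), Mast2 (0.966 and 0.83), Sh3pxd2b (0.962 and 0.60) and Gas7 (0.959 and 0.60). Of the other 9 genes of the response, Asns was nearest to Atf4 by r, with 0.875 over the 9 libraries and 0.888 after the diet means were subtracted. Next by r came Xbp1 (0.811), Atf5 (0.794) and Ppp1r15a (0.731) over the 9 libraries, and Herpud1 (0.734), Atf5 (0.612) and Xbp1 (0.611) after the subtraction. By rho the order after the subtraction differed, with Asns and Xbp1 level (0.72 each), then Sesn2 (0.63), Herpud1 (0.55), Atf6 (0.53) and Atf5 (0.43). The profile of Ppp1r15a was no longer like that of Atf4 once the diet means were subtracted (r = 0.107). Over the 9 libraries Atf6 (r = 0.277), Herpud1 (0.2465), Ddit3 (0.246) and Sesn2 (-0.09) were not like Atf4, and Trib3 stood at 0.490. These are descriptions over 9 points that share library depth and cell makeup, with ad libitum mouse 4 and CR mouse 2 low in Atf4.

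**Figure D4:**
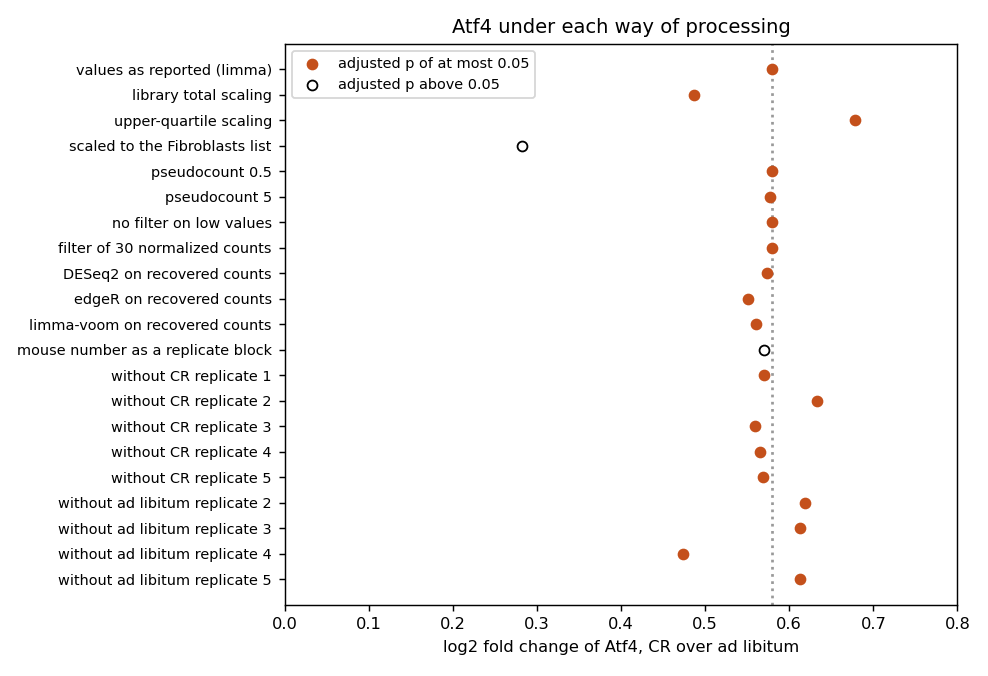
Log2 fold change of Atf4 (x axis, CR over ad libitum) as reported (top, dotted line) and under 20 other ways of processing the same values; filled points have an adjusted p of at most 0.05. The value lies between 0.47 and 0.68 except when scaled to the Fibroblasts list (0.28), and 18 of the 20 are filled.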

How the data were processed

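The authors used cutadapt for trimming and STAR for alignment to mm10, counted molecules at the 3' ends of genes with HTSeq and identifiers, and normalized with DESeq2 (versions not given in the sources used here). They deposited the normalized signal, counts divided by a size factor per library. Whole counts were recovered from it, as 100% of the values above 0 were whole multiples of 1 step per library to within 0.006. The main test was limma 3.58.1 (R 4.3.3, trend) on log2(normalized count + 1) for CR against ad libitum, over 6815 genes with 10 normalized counts in 4 libraries or more, with p adjusted after Benjamini and Hochberg and a threshold of 0.05. Fold changes are on that log2 scale, which understates changes of low genes. Single genes were also tested by exact permutation of 126 assignments. DESeq2 1.42.0, edgeR 4.0.16 and limma-voom on the recovered counts, other scalings, filters and pseudocounts, a mouse number block and leaving out each library were alternatives.

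The 10 genes and all lists were chosen with earlier results of these data known. Named were the 10 genes, of each pathway list the 3 genes with the smallest p and the most abundant one, of each marker list the 2 most abundant genes, and the 5 genes most like Atf4 with and without the diet means; other called genes of a list were named after their values were seen. Some named by this rule are given only as part of a count. One gene that the rule on likeness to Atf4 names is not reported here. Listed genes with no entry in the table were not analysed here. The labels name separate mice. No columns were left without a sample, and no libraries were duplicates (smallest chi-square per degree of freedom 5.43 in CR, 3.70 in ad libitum). A count of 0 allows up to 3 counts, 1.55 to 2.90 normalized counts in CR and 2.69 to 5.85 in ad libitum libraries, counting error only. The paper's methods give a somewhat higher food share for CR than the submitters' notes. Gene overlaps were taken from GENCODE vM21 on GRCm38 (mm10).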

Additional observations from a re-analysis of the deposited data

Results flagged for a closer look

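In 118 groups of 4 or 5 libraries (59 genes, each diet), 5 had 1 library set apart from the rest by more than Dixon's 95% limit, and chance gives about 1 in 20. Atf4 was low in CR mouse 2, at 1288.23 normalized counts with the nearest CR library at 1535.65, and in ad libitum mouse 4, at 802.83 with the nearest ad libitum library at 1071.69. Atf5 was low in CR mouse 3, at 368.67 with the nearest at 460.66. The endothelial gene Cldn5 was high in CR mouse 3, at 44.69 with the nearest at 11.15. Yars was low in CR mouse 2, at 110.72 with the nearest at 126.99, and still above every ad libitum library.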

How the results depend on the processing

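Limma called 1167 genes (544 higher in CR, 623 lower), and 866 to 1235 (365 to 607 higher, 501 to 628 lower) when single libraries were left out. The split was 414 higher and 699 lower with library total scaling, 741 and 558 with the upper quartile, and 101 and 688 when scaled to the Fibroblasts list, and the median log2 fold change over all tested genes was -0.02, 0.16 and -0.22 under these scalings against 0.07. Of the 10 genes 1 was called, 3 with the upper quartile (Atf5 at 0.60 with an adjusted p of 0.0445 and Ppp1r15a at 0.46 with 0.0487 joined Atf4), 0 with the Fibroblasts list, and 1 to 2 when single libraries were left out, with Atf5 as the second without ad libitum mouse 2. Atf4 kept its direction in all 20 alternatives and its call in 18. Scaled to the Fibroblasts list it was at 0.28 (adjusted p 0.506), and with single libraries left out 0.47 to 0.63 (adjusted p 0.0111 to 0.0361). With the mouse number as a replicate block, Atf4 had 0.57 (adjusted p 0.0587), 0 of the 10 genes and 903 of all genes were called, and Ddit3 was at -0.0096. Same-numbered mice did not deviate together (correlations of -0.07, -0.02, 0.03 and 0.04), and of mice 2 to 5 only ad libitum mouse 5 correlated best with its own number. The sources used here state no pairing by number, and these correlations cannot decide whether mice were handled in pairs.

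Directions that turned were of genes near 0. Atf6 was at -0.015 with library total scaling, -0.20 with the Fibroblasts list, -0.13 without CR mouse 3, and -0.15 to 0.27 with single libraries left out, lowest without ad libitum mouse 4. Ddit3 was at -0.0195 with library total scaling, -0.22 with the Fibroblasts list and -0.0096 (without CR mouse 1) to 0.21 with single libraries left out. Herpud1 was at 0.049 with the upper quartile, 0.054 without CR mouse 2, 0.02 without CR mouse 5 and 0.03 without ad libitum mouse 5, in a range of -0.15 to 0.054 with single libraries left out. Of 197 values of the 10 genes under alternatives, 180 kept direction and side of the threshold. The filter of 30 normalized counts left no value for Atf6, Trib3 and Sesn2, whose 3 to 47 molecules a library limit their precision.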
